A study of Mus musculus with 4 samples.

Results

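Bone-marrow-derived macrophages given lipopolysaccharide (LPS) together with the caspase inhibitor zVAD were compared, by gene expression array, with the same kind of cells given LPS alone. The comparison uses 2 of the 4 arrays of the study, those titled LPS/zVAD and LPS, and the other two (untreated Control, and the array with Nec-1 added) are given beside them as reference levels. A gene was represented by its brightest probe with 1 gene symbol, which gave 19938 genes. It was counted when its highest signal on the 4 arrays reached log2 6.47, the median of all values in the table, called the filter level below, and 12203 genes did so. A gene is called higher or lower when the log2 signals of LPS/zVAD and LPS differed by 1 or more, which is 2-fold.

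The macrophages were grown for 7 days from femur and tibia marrow of female BALB/c mice with medium in which L929 cells had been kept, which supplies macrophage colony stimulating factor. That medium made up 30% of the culture at first and was lowered to 10% for the 48 hours before any agent was added, in all 4 conditions. Control cells received no agent named in the labels, LPS cells 10 ng/ml LPS, LPS/zVAD cells the same LPS with 50 µM zVAD, and LPS/zVAD/Nec-1 cells the same LPS and zVAD with 30 µM Nec-1 (necrostatin-1, which blocks the kinase activity of RIPK1). The question stated for the series is which inflammatory changes depend on that kinase. With 1 array per condition, differences lack any check against replicates, and neither p-values nor standard errors were computed. How long the cells were treated, how many mice were used and whether their cells were pooled is not given in the sources used here. This design has no array of zVAD alone or of LPS with Nec-1, so what zVAD does without LPS cannot be told apart from what it does with it.

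LPS binds TLR4, which signals through the adaptors MyD88 and TRIF to NF-kB, MAP kinases and interferon regulatory factors. Caspase-8, one of the caspases that zVAD blocks, restrains the kinases RIPK1 and RIPK3, and in macrophages with active TLR4 the loss of its activity lets them form a complex that activates the membrane-disrupting protein MLKL, a form of cell death called necroptosis. RIPK1 and RIPK3 are also known to signal to gene expression. In bulk RNA of such cells, fewer cells of a kind and less RNA per cell cannot be told apart.

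Promoter stretches of 4 genes are shown. Ifnb1 and Cxcl1 encode secreted products and had large differences upward, and Maff is a transcription factor gene among the 12 largest. Il12b is a cytokine gene on the opposite side. Gem, Osm and Plau, also with large differences upward, were sought too, but the promoter set used held no entry for them. The sequences are RefSeq's on GRCm38.p6, each of 100 bases upstream of a listed start and written 5′ to 3′ on the gene's strand. Capitals mark matches to an NF-kB motif (Ifnb1 and Cxcl1) or to the cyclic AMP response element TGACGTCA (Maff). The windows of Ifnb1, Cxcl1 and Maff were placed to hold these matches, so their capitals follow from the display. The Il12b window, with no match to place it, runs from -150 to -51. The Il12b stretch has none of the searched motifs, which says only that these letters are not in this window.
Ifnb1 (chr4:88522856-88522955, minus strand): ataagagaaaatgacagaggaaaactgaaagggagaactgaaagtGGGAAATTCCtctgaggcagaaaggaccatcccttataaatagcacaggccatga
Cxcl1 (chr5:90891123-90891222, plus strand): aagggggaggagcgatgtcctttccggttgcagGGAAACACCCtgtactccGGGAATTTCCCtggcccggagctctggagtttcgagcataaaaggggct
Maff (chr15:79347420-79347519, plus strand): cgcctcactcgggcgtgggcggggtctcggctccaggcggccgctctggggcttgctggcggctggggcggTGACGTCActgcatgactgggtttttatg
Il12b (chr11:44399913-44400012, plus strand): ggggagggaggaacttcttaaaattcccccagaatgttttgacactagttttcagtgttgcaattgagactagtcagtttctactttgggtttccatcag

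In the 250 bases before the start, searched on both strands, the AP-1 motif TGANTCA was present in 8.23% of the 413 promoters of higher genes, 3.19% of the 470 promoters of lower genes and 4.68% of the promoters of all genes past the filter. For TGACGTCA these shares were 4.12%, 2.34% and 2.49%, and for the EGR motif GCGGGGGCG they were 4.36%, 5.96% and 4.74%. The NF-kB motif was present in 2.66% and 2.77% of the promoters of higher and lower genes, and in 1.63% of those past the filter. The interferon response motif stood at 2.66%, 3.62% and 2.65%. Over all 32851 promoters the 5 shares were 6.75% for AP-1, 1.55% for the cyclic AMP element, 2.57% for EGR, 1.61% for NF-kB and 2.98% for the interferon response motif. A match is a run of letters and not a measured binding site.

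With zVAD, 396 genes were higher than with LPS alone (3.25% of those past the filter) and 438 were lower (3.59%), while 11369 lay within 2-fold. The median difference of all genes was -0.05 on the log2 scale, and 5% of genes lay below -0.90 and 5% above 0.78. The differences upward reached further than those downward: 27 genes were at least 8-fold higher and 0 at least 8-fold lower, and at 4-fold the counts were 77 and 34. Toward small differences the balance of the deposited values turned, with 971 genes higher and 1607 lower at 1.5-fold. The split at 2-fold depended on the scaling of the arrays. As deposited, 47.5% of the called genes were higher, against 42.1% after centring each array on its median (371 higher, 510 lower), 57.8% after quantile normalization (433 and 316) and 61.1% after cyclic loess (467 and 297). The balance at 1.5-fold depended on the scaling as well. There, 866 genes were higher and 1827 lower with centred arrays, 1093 and 1274 after quantile normalization, and 1209 and 1203 after cyclic loess. At 8-fold every one of these scalings gave between 26 and 28 genes higher and 0 lower. All these counts take signals under the filter level as they stand. Counted from that level, Zbtb10 was 6.05-fold and Il2 3.02-fold higher, and Il23r was 2.75-fold and Lox 3.48-fold lower.

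**Figure D1:**
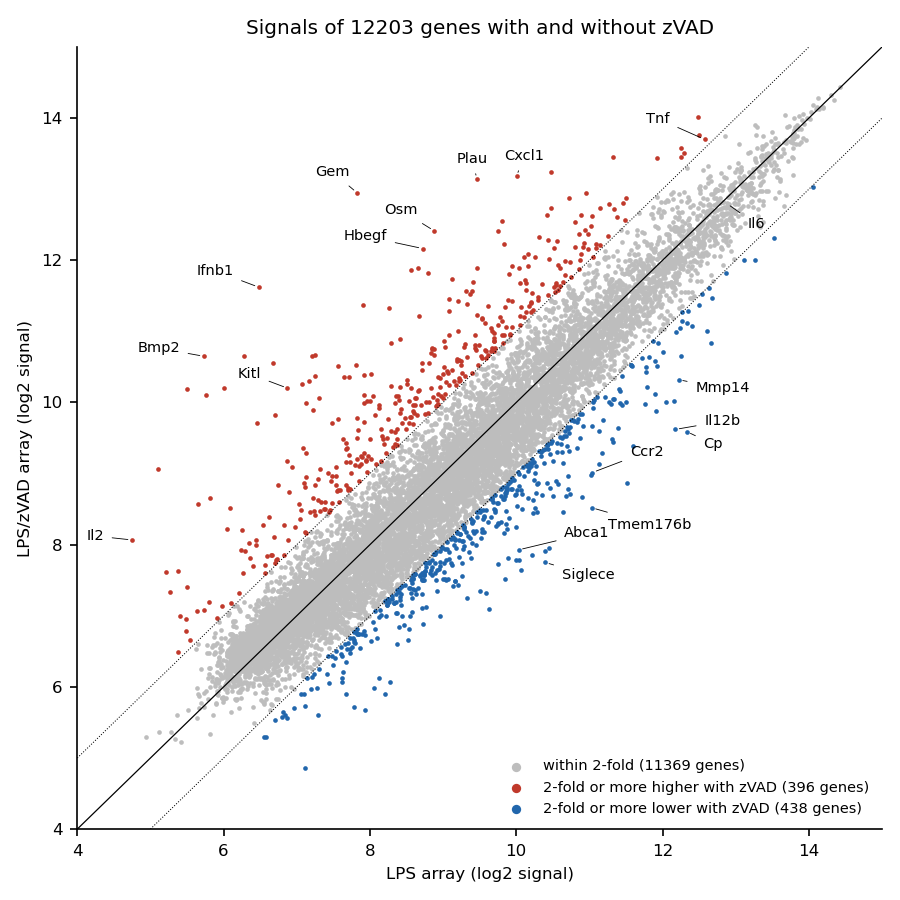
Log2 signal of each gene past the filter on the LPS array (x axis) and the LPS/zVAD array (y axis), 1 array each, with the line of equal signal and dotted lines at 2-fold. The 396 higher genes (red) reach further from the line than the 438 lower genes (blue), with Ifnb1 and Gem farthest above it and Cp farthest below.

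**Figure D2:**
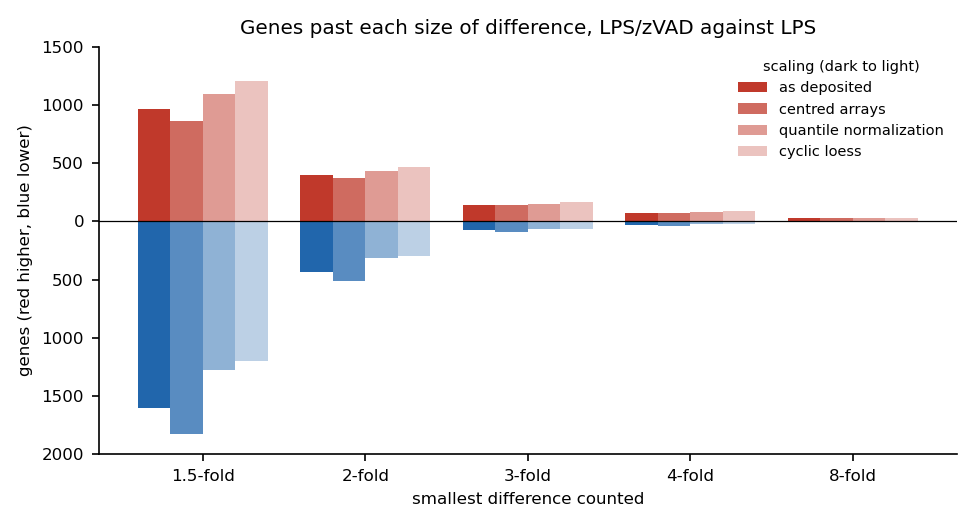
Number of genes past each size of difference (x axis), higher above 0 and lower below it (y axis, genes), for the deposited values and 3 further scalings from dark to light. At 1.5-fold the deposited values give 971 higher and 1607 lower genes, and at 8-fold 27 and 0.

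Whether a gene was called also varied with its signal. Of the 3051 dimmest genes by mean signal 0.885% were higher and 1.51% lower, and of the 3051 brightest 4.79% and 2.85%. The LPS signal lay under the filter level for 37 of the higher genes, and for these a bound counted from that level replaces the fold. For 38 of the lower genes the LPS/zVAD signal lay under that level, and a bound replaces any fold given for them. The order of such genes among the largest differences is not settled. Genes with another probe past the filter gave a second reading of the same RNA. Of 25 such higher genes 24 had the same direction on their other probes and 11 passed 2-fold there, with a median difference of 0.90 against 1.35 for the main probe. Of 15 such lower genes, 14 had the same direction and 9 passed 2-fold, with medians of -1.23 and -1.16. Pdlim1, a cytoskeletal adaptor gene, differed by 3.14 on one probe and 3.32 on the other, while Snx29 differed by 2.67 and 0.02. Nearest the threshold, Il15ra, at 11.05 and 12.05 on the LPS and LPS/zVAD arrays, lay just inside it and Larp1b, at 7.42 and 8.42, just outside. On the lower side Spn, at 8.20 and 7.20, lay just inside and As3mt, at 8.39 and 7.39, just outside.

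In what follows, 4 signals of a gene are given in the order of Control, LPS alone, LPS/zVAD and the array with Nec-1 added, and a pair of signals is LPS alone and then LPS/zVAD. Counts of list members are over those past the filter, which a gene can pass by being high with zVAD alone, and they describe these arrays only. Each count is to be read beside the shares over all genes past the filter, 3.25% higher and 3.59% lower. A single called member of a long list lies near those shares.

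Several secreted ligands were among the largest differences upward. Ifnb1, the gene of interferon beta, stood at log2 5.42 in Control and 6.48 with LPS, at 11.62 with LPS/zVAD and at 7.51 once Nec-1 was added, and was 35.3-fold higher with zVAD than with LPS alone. Its Control signal lay under the filter level and its LPS signal just above it. Lif, leukaemia inhibitory factor, stood at 5.94, 5.51, 10.19 and 6.32 and was at least 13.1-fold higher. Osm, oncostatin M, which shares the receptor chain gp130 with Lif, stood at 7.83, 8.88, 12.41 and 10.24 and was 11.6-fold higher. The other gp130 ligands past the filter did not follow them: Il6 was at 12.88 with LPS and 12.80 with LPS/zVAD, Il27 at 11.62 and 11.67, and Clcf1 at 7.29 and 7.31.

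Growth factors of other families were high on the same array. Bmp2, a bone morphogenetic protein, stood at 5.32 in Control and 5.73 with LPS, at 10.65 with LPS/zVAD and at 6.57 once Nec-1 was added, at least 18.1-fold higher with zVAD. Inhba, the activin A subunit, stood at 6.38, 9.83, 12.23 and 10.58 and was 5.27-fold higher. Of 18 genes of BMP, activin and TGF-beta signalling past the filter 3 were higher (Skil, a repressor of SMAD proteins, was the third at 1.04) and 1 lower, Id3, a target of BMP signalling, at 8.47 and 6.88. The difference of Skil was 0.9987 with centred arrays. Hbegf, a ligand of the EGF receptor, stood at 7.93, 8.72, 12.17 and 9.77 and was 10.9-fold higher, the one of 3 EGFR ligands past the filter that was called. Kitl, the stem cell factor that binds the receptor KIT, stood at 6.85, 6.87, 10.20 and 7.59. Edn1, the vasoconstrictor endothelin 1, stood at 5.86, 11.33, 13.45 and 12.29 and was 4.35-fold higher. Csf1, the macrophage colony stimulating factor, stood at 6.35, 8.84, 10.76 and 9.23 and was 3.78-fold higher. Csf2, which encodes GM-CSF, was at 5.26 with LPS and 7.33 with zVAD, at least 1.82-fold higher. Il2, a T cell growth factor, was under the filter level on 3 arrays (4.64, 4.75 and 4.90, in Control, with LPS and with Nec-1 added) and at 8.07 with LPS/zVAD, at least 3.02-fold higher.

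Among chemokines and inflammatory cytokines the differences went both ways. Cxcl1, which attracts neutrophils through CXCR2, stood at 8.38 in Control and 10.00 with LPS, at 13.18 with LPS/zVAD and at 10.74 once Nec-1 was added, 9.04-fold higher with zVAD. Cxcl2, a ligand of the same receptor, stood at 10.01, 12.48, 14.01 and 13.21 and was 2.88-fold higher. Of the 11 CXC and CX3C chemokines past the filter 2 were lower, Ppbp at 9.83 and 8.17 and Cxcl3 at 10.42 and 9.40. The difference of Cxcl3 was -0.91 after quantile normalization and -0.90 after cyclic loess, so its call depended on the scaling. Of 13 CC chemokines, Ccl4, an attractant of monocytes and T cells, was higher (12.50 and 13.77) and Ccl17, a ligand of CCR4, 3.04-fold lower (12.61 with LPS), while Ccl2, Ccl3 and Ccl5 differed by 0.04, 0.17 and -0.05 at signals of 13.97 to 14.29. Such signals lie near the top of the table, which ends at 14.6.

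Of 10 TNF superfamily ligands 3 were higher. Tnf itself stood at 10.75, 12.57, 13.70 and 13.07 and was 2.18-fold higher with zVAD. Tnfsf15, a ligand of the receptor DR3, was 2.78-fold higher (10.95 and 12.42), and Tnfsf14, known as LIGHT, at least 4.55-fold higher (5.82 and 8.66). Tnfsf4, the OX40 ligand, was lower, at 7.68 and 6.35. In the IL-1 family, Il33, a cytokine released by damaged cells, was higher (7.68 and 9.34) and Il1f6, now called IL-36 alpha, lower (10.06 and 7.65), while Il1a and Il1b differed by -0.27 and -0.32. Il10, an anti-inflammatory cytokine, was 2.17-fold higher (8.91 and 10.03).

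Il12b, the shared p40 subunit of interleukins 12 and 23, was the cytokine gene with the largest difference downward. It stood at 5.94 in Control, 12.17 with LPS and 9.62 with LPS/zVAD, and was 5.87-fold lower with zVAD. Its LPS/zVAD signal thus lay between Control and LPS, and with Nec-1 added it differed from LPS alone by -0.17. Ebi3, which pairs with other subunits of that family, was lower too (11.58 and 10.51), with a difference of -0.96 after cyclic loess. Il23r, part of the receptor of interleukin 23, was at 7.93 and 5.67, at least 2.75-fold lower.

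**Figure D3:**
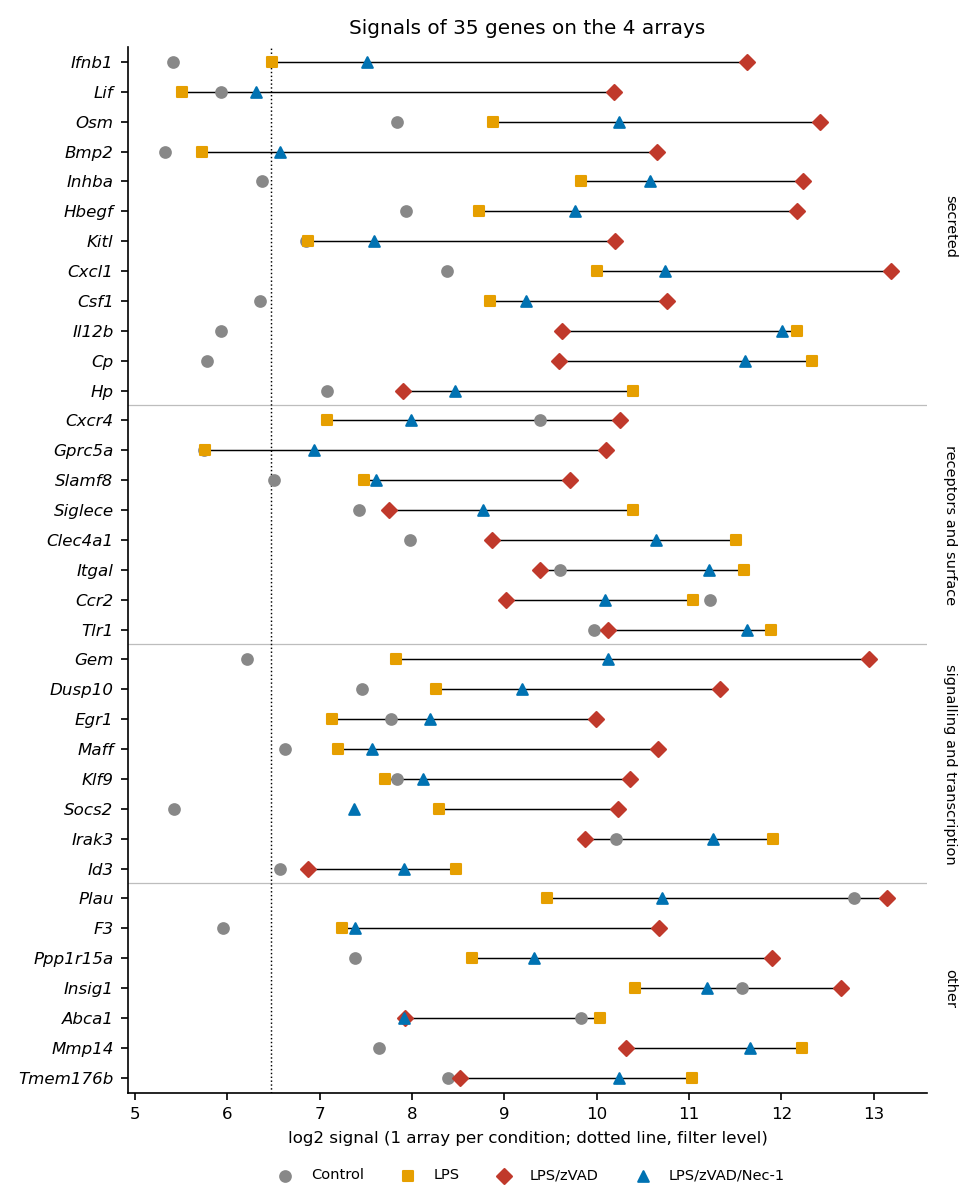
Log2 signal (x axis) of 35 genes on the 4 arrays, 1 array per condition, with a line from LPS to LPS/zVAD and a dotted line at the filter level of 6.47. Ifnb1, Lif and Bmp2 lie near or under the dotted line with LPS and above 10 with LPS/zVAD, while Siglece and Tmem176b with LPS/zVAD lie close to their Control signals.

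Several surface receptors of myeloid cells were lower. None of 17 siglecs and paired receptors past the filter was higher and 6 were lower, with a median of -0.25 beside -0.05 for all genes. Over all 19 matched members the median was -0.06, and -0.10 after quantile normalization. Siglece, an inhibitory receptor for sialic acid, stood at 7.42 in Control and 10.39 with LPS, at 7.75 with LPS/zVAD and at 8.77 once Nec-1 was added, 6.25-fold lower with zVAD. Siglec1, the sialic acid receptor sialoadhesin, stood at 9.59, 11.14, 9.14 and 10.53 and was 3.99-fold lower, and Pirb, an inhibitory receptor for MHC class I, was 3.44-fold lower (11.76 and 9.98). Pilra, Pilrb1 and Pilrb2, a group of paired receptors with similar sequences, differed by -1.06, -1.11 and -1.07 and fell short of 2-fold in 1 or more of the other scalings. Clec4a1, Clec4a2 and Clec4a3, neighbouring C-type lectin receptors of the DCIR group, were 6.28-fold, 2.98-fold and 4.67-fold lower, and they were the 3 called among 12 C-type lectin receptors. RNA of near-identical genes can bind the same probe, so the values of single members of the Pilr and Clec4a families are uncertain.

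Some pattern recognition receptors were lower as well. Of 23 Toll-like receptors and adaptors 5 were lower. Tlr1, a partner of TLR2 for bacterial lipopeptides, stood at 9.97, 11.89, 10.13 and 11.62 and was 3.40-fold lower with zVAD. Tlr6, the other partner of TLR2, was lower as deposited (10.20 and 9.11) but at -0.95 and -0.94 after quantile normalization and cyclic loess, and Tlr8, a sensor of RNA, was 2.47-fold lower (12.01 and 10.70). Irak3, which encodes IRAK-M, an inhibitor of the TLR kinases, stood at 10.21, 11.91, 9.87 and 11.26 and was 4.11-fold lower. Ikbke, a kinase related to TBK1, was 2.51-fold lower (12.40 and 11.07). The one member higher was Ticam1, the gene of TRIF, at 8.76, 9.43, 10.76 and 9.75. None of the 12 Fc gamma and complement receptor genes was called in either direction, and their differences ran from -0.90 to 0.19.

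Chemokine receptors divided evenly, 3 higher and 3 lower of 10. Cxcr4, the receptor of CXCL12, stood at 9.39 in Control and 7.08 with LPS, at 10.25 with LPS/zVAD and at 7.99 once Nec-1 was added, 9.05-fold higher with zVAD. Cxcr6 was at least 4.28-fold higher (5.65 and 8.57), and Ccrl2, a non-signalling chemerin receptor, 2.50-fold higher (12.26 and 13.58). Ccr2, the monocyte receptor of CCL2, stood at 11.22, 11.04, 9.02 and 10.09 and was 4.07-fold lower. Cx3cr1, the receptor of fractalkine, stood at 12.40, 10.46, 8.80 and 10.71 and was 3.17-fold lower, and Ccr3 was 2.28-fold lower (7.75 and 6.57). Cmklr1, the signalling chemerin receptor, was at 10.00 and 7.79. Of 25 receptors past the filter in a list of purinergic, lipid-sensing and other receptors, Gprc5a was at least 12.4-fold higher (5.76 and 10.10). The adenosine receptors written in that list were not matched and not analysed. Gpr18, Gpr31b, Gpr84 and Gpr65 were lower, and for Gpr65 the difference of -1.01 was -0.88 after quantile normalization. Gpr31b stood at 12.04 with LPS and 10.00 with zVAD, and its other probe differed by -2.12.

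In adhesion and T cell contact, Itgal, the alpha chain of LFA-1, stood at 9.60, 11.59, 9.39 and 11.22 and was 4.62-fold lower with zVAD. Itgb8, an integrin chain that activates TGF-beta, was 3.34-fold lower (10.26 and 8.52), and Itgav, its partner chain, 2.15-fold higher (10.52 and 11.63). Costimulatory molecules had 3 of 17 members higher and 0 lower: Slamf8, a SLAM family receptor (4.70-fold), Cd83 (2.87-fold) and Cd86, a ligand of CD28 (2.35-fold). Cd80 and Cd40 differed by 0.95 and -0.30, and none of 10 MHC class II presentation genes was called.

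Genes that respond to growth factors and MAP kinases formed the list with the most members on the higher side. Of 33 past the filter 13 were higher and 1 lower, Thbs1, with a median of 0.55 beside -0.05 for all genes. F3, tissue factor, stood at 5.95 in Control and 7.25 with LPS, at 10.67 with LPS/zVAD and at 7.38 once Nec-1 was added, 10.8-fold higher with zVAD. Plk2, a polo-like kinase, stood at 9.87, 10.48, 13.24 and 12.19 and was 6.77-fold higher, and Csrnp1, a nuclear protein induced by AXIN1, stood at 7.42, 9.81, 12.56 and 10.67 and was 6.72-fold higher. Zfp36l2, an mRNA decay factor, was 5.42-fold higher, Gadd45a and Gadd45g, stress sensors, were 4.62-fold and 4.06-fold higher, and Sgk1, a kinase downstream of PI3 kinase, was 3.40-fold higher. The remaining higher members, Edn1 above and Ier5, Plk3, Rhob, Rnd3 and Phlda1, ranged from 1.21 (Phlda1) to 2.48 (Rnd3) on the log2 scale. The list was not one block, since Ier3 differed by -0.01 and Myc by -0.13.

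Transcription factors of the immediate early kind were called in part. Maff, a small MAF protein, stood at 6.62 in Control and 7.20 with LPS, at 10.66 with LPS/zVAD and at 7.57 once Nec-1 was added a difference of 3.46 on the log2 scale, and its relative Mafk was 5.19-fold higher (9.08 and 11.46). Jun, the AP-1 subunit, was 2.57-fold higher (10.57 and 11.93), while Fos, Fosb and Atf3 differed by 0.36, 0.64 and 0.63. Egr1, a zinc finger factor induced by ERK, stood at 7.78, 7.13, 9.99 and 8.20 and was 7.26-fold higher. Egr2 was 4.51-fold higher (7.12 and 9.30) and Nr4a3, an orphan nuclear receptor, 3.48-fold (8.13 and 9.93), which made 3 of 9 EGR and NR4A genes. Klf9 stood at 7.83, 7.71, 10.36 and 8.12 and was 6.30-fold higher, Klf4 was 3.42-fold higher, and Klf3 2.50-fold lower. Jdp2, which represses AP-1, was lower at -1.02 and at -0.87 after cyclic loess.

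Feedback regulators of MAP kinases were also among the higher genes. Dusp10, a phosphatase of p38 and JNK, stood at 7.46 in Control and 8.26 with LPS, at 11.33 with LPS/zVAD and at 9.19 once Nec-1 was added and was 8.40-fold higher. Dusp4, a phosphatase of nuclear MAP kinases, was 4.77-fold higher (9.31 and 11.57), Dusp8 2.94-fold and Spry2, an inhibitor of receptor tyrosine kinase signalling, 2.52-fold. Another probe of Dusp8 differed by 0.24, and the mean of its probes by 0.90. Dusp2 was 2.24-fold lower, and Dusp1, Dusp5 and Dusp6 differed by 0.24, 0.19 and -0.52, so 4 of 18 members were higher and 1 lower. Gem, a small GTP-binding protein that inhibits calcium channels, stood at 6.21, 7.82, 12.95 and 10.13 and was 34.9-fold higher. With it, Rnd3, Rasgrp3, Rgs1 and Rgs2 were higher among 17 small GTPases and their regulators, and Rasgrp1 was lower (9.74 and 7.73). Rasgrp3 and Rasgrp1, exchange factors of Ras, lay on opposite sides: Rasgrp3 stood at 9.87, 5.21, 7.62 and 5.86 and Rasgrp1 at 5.82, 9.74, 7.73 and 7.84.

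Cytokine feedback genes of the SOCS family had a median of 0.64 over 8 members, with 2 higher and 0 lower. Socs2 stood at 5.42, 8.29, 10.23 and 7.38 and Cish at 6.48, 8.07, 9.82 and 7.76, both known targets of STAT5, and they were 3.84-fold and 3.37-fold higher with zVAD than with LPS. Another probe of Socs2 differed by 0.95, and the mean of its probes by 1.44. Socs1 and Socs3 differed by -0.19 and -0.15.

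**Figure D4:**
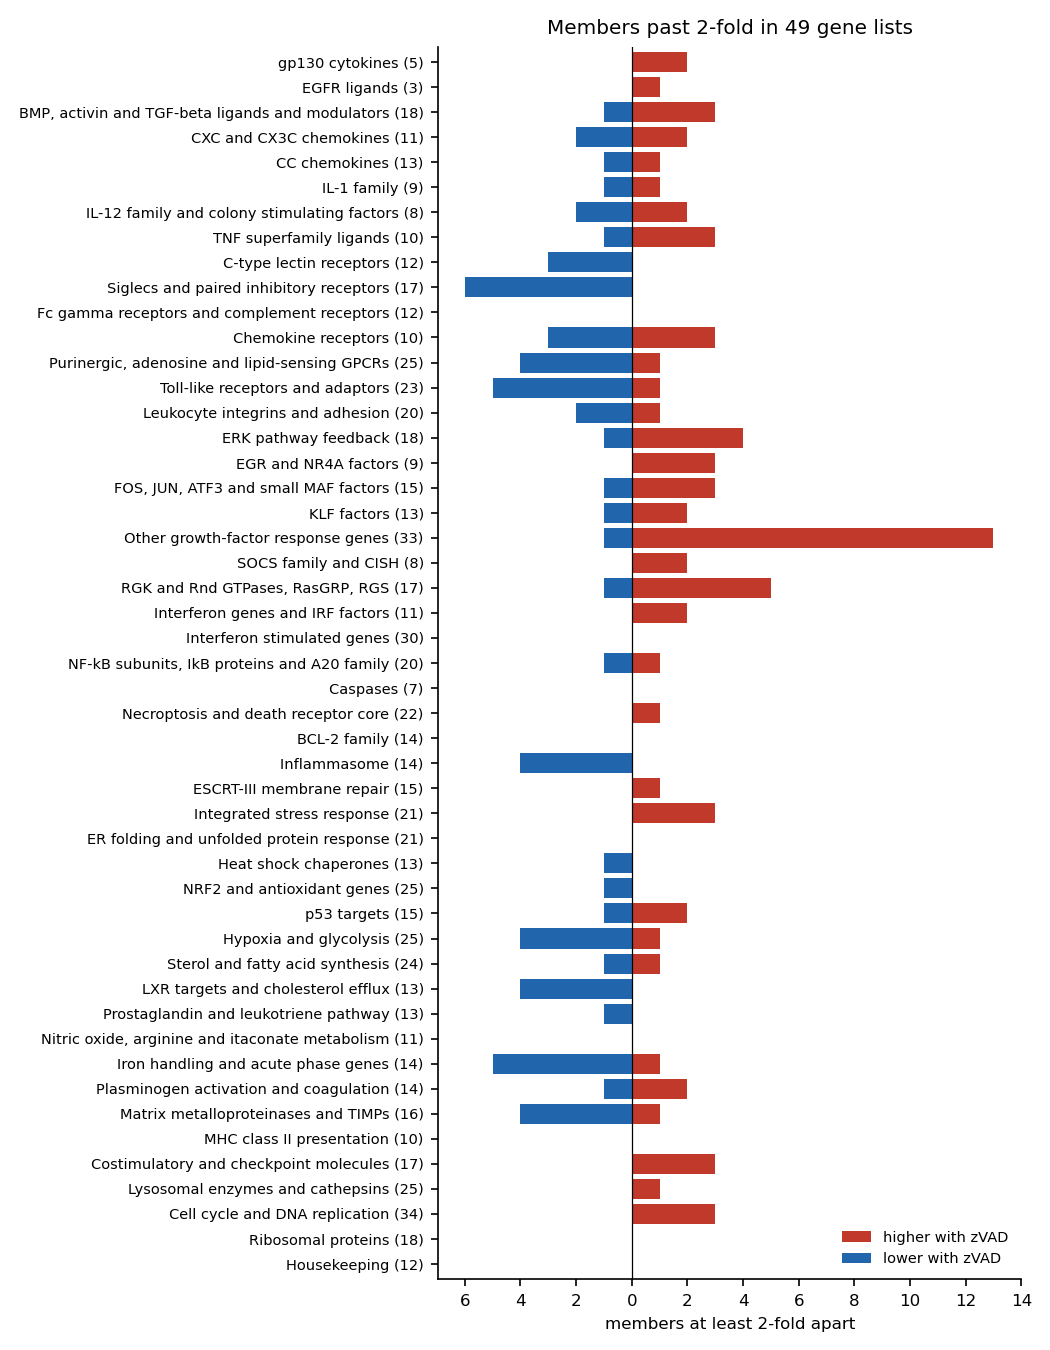
Members at least 2-fold apart (x axis, number of genes; red higher with zVAD, blue lower) in each of 49 gene lists, with the number of members past the filter in brackets. Growth-factor response genes have 13 higher and 1 lower member, siglecs and paired receptors 0 and 6, and interferon stimulated genes 0 and 0.

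Interferon stimulated genes lay within 2-fold while Ifnb1 was 35.3-fold higher. All 30 members past the filter lay between -0.41 and 0.73, with a median of 0.02 that turned to -0.02 when arrays were centred. Ifit1, an inhibitor of viral RNA translation, stood at 7.47 in Control and 13.38 with LPS, at 13.75 with LPS/zVAD and at 13.37 once Nec-1 was added, and Mx1 at 6.74, 12.81, 12.66 and 12.65. Rsad2, the antiviral enzyme viperin, was at 14.03 and 14.08, near the top of the table, which ends at 14.6. Whether the brightest members could show a further rise was not tested. Among interferon and IRF genes, Irf1 was higher besides Ifnb1 (11.46 and 12.81), with another probe at 0.57 and the mean of its probes at 0.96. Irf7 and Irf3 differed by -0.34 and -0.77, and Ifna2 was at 6.08 and 7.04.

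NF-kB subunits and inhibitors had 1 of 20 members higher, the kinase gene Map3k8 (10.21 and 11.28), and 1 lower, Bcl3 (11.04 and 9.92), with Tnfaip3, the deubiquitinase A20, at 11.87 and 12.75 and Nfkbia at 13.20 and 13.08. The median of -0.06 turned to 0.03 after cyclic loess, where Bcl3 fell just short of 2-fold at -0.9985.

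Of 22 genes of necroptosis and death receptors past the filter 1 was higher, Otulin, a deubiquitinase of linear ubiquitin chains (9.61 and 10.66), and 0 lower, beside 3.25% and 3.59% of all genes. Ripk3, the necroptosis kinase, stood at 9.84, 9.44, 9.74 and 9.40, and Mlkl, its substrate, at 8.93, 11.86, 11.73 and 11.73. Casp8 stood at 12.50, 13.17, 12.98 and 13.03, Cflar, its inactive homologue, at 11.62 with LPS and 12.24 with zVAD, Fadd at 7.79 and 8.55, and Zbp1 at 12.45 and 12.32. Ripk1 was not analysed here. None of the 7 caspases past the filter was called, and none of 14 BCL-2 family genes, whose differences ran from -0.56 to 0.88. Chmp1b, a subunit of the ESCRT-III membrane repair machinery, was the one of 15 that was called, 3.35-fold higher (9.62 and 11.36).

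Of 14 inflammasome genes 4 were lower and 0 higher, with a median of -0.45 beside -0.05 for all genes. Pycard, the adaptor ASC, stood at 10.62, 10.63, 9.14 and 10.20 and was 2.81-fold lower. Mefv, the gene of pyrin, was 2.26-fold lower and Nlrc4, the adaptor of NAIP receptors, 2.13-fold lower. Naip5, a receptor of flagellin, was at 9.27 and 8.27 as deposited, with a difference of -0.88 after quantile normalization. Nlrp3 differed by -0.62, Gsdmd, the pore-forming gasdermin D, by -0.74 and Casp1 by -0.45.

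In the integrated stress response 3 of 21 members were higher and 0 lower, with a median of 0.44, which was 0.29 over all 24 matched members. Ppp1r15a, GADD34, which restores translation, stood at 7.38 in Control and 8.65 with LPS, at 11.90 with LPS/zVAD and at 9.32 once Nec-1 was added and was 9.46-fold higher. Chac1, a glutathione-degrading enzyme, was 2.81-fold higher (8.42 and 9.91) and Atf4, the central factor of the response, 2.24-fold (10.05 and 11.22), while Ddit3 and Trib3 differed by 0.48 and 0.79. Of 21 genes of protein folding in the endoplasmic reticulum none was called, with a median of -0.28, and Hspa5, the chaperone BiP, was at 13.27 and 13.30. Among 13 heat shock chaperones Hsph1 was lower at -1.14 (-0.98 after cyclic loess), and among 25 NRF2 and antioxidant genes Gsr, glutathione reductase, was 2.18-fold lower, with Hmox1 at 13.31 and 12.49. Plk2 and Plk3, counted above, were the higher members of 15 p53 targets, and Sesn1 was lower at 9.12 and 7.71.

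Cholesterol efflux genes were lower in part. Of 13 LXR targets 4 were lower and 0 higher, with a median of -0.50. Over all 14 matched members the median was -0.37, and it was -0.29 after quantile normalization and -0.25 after cyclic loess. Abca1, the transporter that loads cholesterol on apolipoprotein A-I, stood at 9.82, 10.03, 7.93 and 7.92 and was 4.30-fold lower with zVAD, and its LPS/zVAD/Nec-1 signal lay beside that of LPS/zVAD. Mylip, which degrades the LDL receptor, was 2.95-fold lower (10.42 and 8.86), Nr1h3, the receptor LXR alpha, 2.88-fold (9.26 and 7.74) and Abcg1, another sterol transporter, 2.33-fold (11.41 and 10.19). They stood at 9.96, 8.85 and 11.15 with LPS/zVAD/Nec-1. In sterol and fatty acid synthesis, Insig1, which holds back the SREBP factors, was 4.68-fold higher (10.42 and 12.64) and Scd2, a desaturase, 2.36-fold lower, among 24 genes with a median of 0.02 that turned to -0.03 with centred arrays. Hypoxia and glycolysis genes had 1 higher, Ndrg1, and 4 lower of 25, but Pfkfb4, Pfkl and Slc16a3, with differences of -1.06 and -1.08 for the first pair and 11.86 against 10.86 for Slc16a3, fell short of 2-fold after quantile normalization and cyclic loess, which left Egln1, an oxygen sensor, at 9.85 and 8.47. Ptges, the inducible prostaglandin E synthase, was 2.31-fold lower (12.33 and 11.12) and the one of 13 prostaglandin and leukotriene genes called, with Ptgs2 at 13.36 and 13.61. None of 11 genes of nitric oxide, arginine and itaconate metabolism was called, and Nos2 was at 13.03 and 12.63.

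Iron handling and acute phase genes differed in both directions, 1 higher and 5 lower of 14. Hamp, the iron hormone hepcidin and a known target of BMP signalling and STAT3, stood at 4.72 in Control and 6.01 with LPS, at 10.21 with LPS/zVAD and at 6.52 once Nec-1 was added, at least 13.3-fold higher with zVAD. Cp, the ferroxidase ceruloplasmin, stood at 5.78, 12.33, 9.59 and 11.60 and was 6.67-fold lower, the largest difference downward of all genes past the filter. Hp, haptoglobin, stood at 7.08, 10.39, 7.91 and 8.47 and was 5.61-fold lower. Cfb, a complement protease, was 3.03-fold lower (12.25 and 10.65), Saa3, serum amyloid A, 2.04-fold lower at 14.06 and 13.04, and Lcn2, the siderophore binder lipocalin 2, 2.05-fold lower at 12.86 and 11.83 (-0.98 after cyclic loess).

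Proteases of the extracellular matrix differed in both directions. Plau, the urokinase plasminogen activator, stood at 12.78 in Control and 9.46 with LPS, at 13.14 with LPS/zVAD and at 10.71 once Nec-1 was added and was 12.8-fold higher with zVAD. F3 above was the other of 14 plasminogen and coagulation genes on that side, and Serpinb2, an inhibitor of Plau, was 2.59-fold lower (9.55 and 8.18). Of 16 metalloproteinases and TIMPs 4 were lower. Mmp14, a membrane-bound collagenase, stood at 7.64, 12.22, 10.32 and 11.66 and was 3.73-fold lower, Mmp25, another membrane-bound enzyme, was 3.53-fold lower (10.28 and 8.46) and Mmp9, gelatinase B, 2.81-fold lower (9.01 and 7.51). Mmp8 was at -1.03 and at -0.93 after quantile normalization. Adamts1, a secreted protease of proteoglycans, was 3.60-fold higher (6.89 and 8.74). Tnc, the matrix protein tenascin C, stood at 10.04 with LPS and 7.79 with zVAD.

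Several large differences fell outside these lists. Prrg4, a transmembrane protein with a Gla domain, was at least 18.2-fold higher (6.27 and 10.65). Sphk1, the kinase that makes sphingosine 1-phosphate, was 8.77-fold higher (7.24 and 10.38), Htr2a, a serotonin receptor, 11.1-fold (7.91 and 11.38), Slc39a2, a zinc importer, 9.85-fold (8.57 and 11.87) and Otud1, a deubiquitinase, 8.19-fold (8.79 and 11.82). On the other side, Tmem176b and Tmem176a, neighbouring genes of ion channel-like membrane proteins, were at 11.03 and 8.52 and at 10.45 and 7.95 with LPS and LPS/zVAD. Sephs2, which makes selenophosphate, was at 9.50 and 7.34, and Pik3cg, the catalytic subunit of PI3 kinase gamma, at 9.89 and 7.82.

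**Figure D5:**
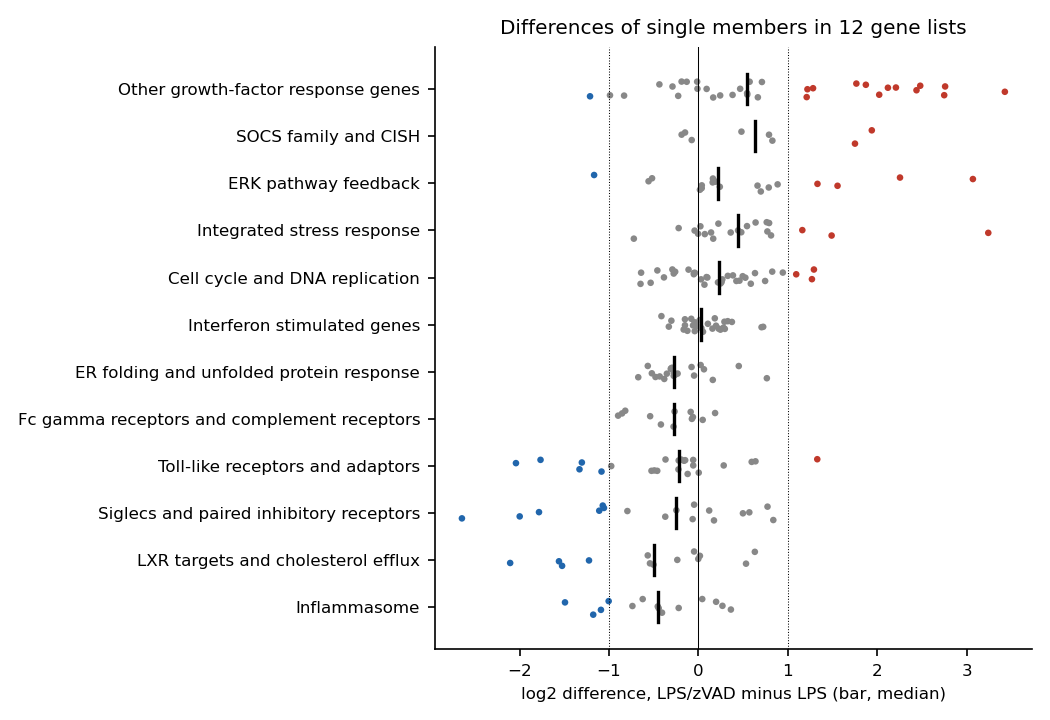
Log2 difference LPS/zVAD minus LPS (x axis) of every member past the filter in 12 gene lists, 1 point per gene, with a bar at the median and dotted lines at 2-fold. The medians run from -0.50 for LXR targets to 0.64 for the SOCS family and CISH, and interferon stimulated genes lie between -0.41 and 0.73.

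Of 34 cell cycle genes 3 were higher (Mcm4, Cdc20 and Cdt1, at 1.29, 1.27 and 1.09) and 0 lower, with a median of 0.23 beside -0.05 for all genes. The 25 lysosomal genes had 1 higher, Atp6v0d2, a subunit of the proton pump (8.56 and 9.80). None of 18 ribosomal protein genes and none of 12 housekeeping genes was called, with medians of 0.09 and -0.01.

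Defining macrophage markers were bright on both arrays. Lyz2 stood at 14.01 and 13.98, Cd68 at 13.03 and 13.37, Adgre1, an adhesion receptor of macrophages, at 13.31 and 12.62, and Csf1r at 12.14 and 11.99. Of 23 macrophage markers past the filter 0 were higher and 4 lower (Ccr2, Cx3cr1, Maf and Aif1), and the log2 of the summed signal of all 24 matched markers was 17.16 and 16.98. Markers of other cells passed the filter in part: 14 of 16 matched neutrophil markers, 10 of 15 for stroma and endothelium, 7 of 12 for dendritic cells and 3 of 5 for erythroid cells did so. Fewer did for lymphocytes, with 2 of 10 B cell markers and 4 of 15 of T and NK cells, and for mast cells and basophils, with 2 of 11. The B cell markers Cd79a and Ms4a1, the T and NK cell markers Cd3g and Ncr1, the dendritic cell markers Flt3 and Xcr1 and the mast cell markers Kit and Cpa3 lay under the filter level on all 4 arrays. The log2 of the summed signal of 16 matched neutrophil markers was 14.06 with LPS and 13.29 with zVAD, and of the 14 past the filter 3 were lower (Lcn2, Mmp8 and Mmp9). The differences of these 14 ran from -1.49 to 0.02, with a median of -0.58 beside -0.05 for all genes. Ly6g was at 7.72 and 7.42 and S100a8 at 10.21 and 10.03. For 12 dendritic cell markers (7 past the filter) that sum was 13.25 and 12.14, with Ccl17 and Fscn1 (at -0.96 after cyclic loess) lower. For 15 stromal and endothelial markers (10 past the filter) it was 11.49 and 11.02, with Dcn and Pecam1 lower. Such a sum follows its brightest members. The median difference of the dendritic cell markers was 0.03 over all 12 and -0.39 over those past the filter. That of the stromal and endothelial markers was 0.03 over all 15 and -0.27 over those past the filter. Hdc was lower of 2 mast cell markers, Cd28 higher of 4 T and NK cell markers (at least 1.64-fold), and the 2 B cell and 3 erythroid markers past the filter were not called. The part of these cells in the differences of Lcn2, Mmp8, Mmp9 and Ccl17 was not tested.

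The LPS/zVAD/Nec-1 array gives a further reading of the same genes, but it was set against the LPS/zVAD array that the differences above also use, so the values only stand side by side. Against LPS/zVAD, 139 genes were higher with Nec-1 (1.14% of those past the filter) and 405 lower (3.32%). Among the growth-factor response genes 0 were higher and 14 lower, among the ERK feedback genes 0 and 6, among Toll-like receptors and adaptors 4 and 1, and among siglecs and paired receptors 2 and 0. Some genes kept a signal with Nec-1 unlike that of LPS alone. Plk2 stood at 12.19 against 10.48 with LPS, Gem at 10.13 against 7.82, Scd2 at 7.62 against 10.01 and Abca1 at 7.92 against 10.03.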

How the data were processed

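The authors deposited gene-level log2 signals of 4 Affymetrix arrays, which the submitters' processing notes credit to Affymetrix Expression Console. The software's version and how it corrected, summarised and normalized the arrays is not given in the sources used here. An unknown normalization bears on every ratio, so 3 further scalings were tried (limma 3.58.1 in R 4.3.3). Of 35556 probes 21789 had 1 symbol in the platform annotation, and the 1621 with several symbols and 12146 with none were not named. Array medians were 6.52, 6.41, 6.46 and 6.49 for Control, LPS and LPS/zVAD and with Nec-1 added. Samples were grouped by title. The only measure was the difference of log2 signals between 2 arrays, called by size, with no test. The number of arrays limits the precision. Differences were computed in Python 3.11.15 and checked on simulated data. That check had small noise and shifts far from the threshold. It covers the computation only and cannot show how many calls noise alone would give on these arrays.

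Members and lists were chosen with earlier results of these data known, so they are no independent support. There were 49 gene lists of 927 members, of which 846 were matched (5 by an older symbol) and 759 past the filter, and 8 marker lists. Named genes were the 30 highest and 30 lowest differences, list members past 2-fold, the 3 largest in each list, key genes, markers and those nearest the threshold. Other members were named after their values were seen. Alternatives were the scalings, the signal filter, the mean of probes, raised low signals and other fold thresholds.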

Additional observations from a re-analysis of the deposited data

How the results depend on the processing

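At a threshold of 1.5-fold the counts were 971 higher and 1607 lower, and at 3-fold they were 144 and 77. The 2-fold counts of 396 and 438 stayed within 1.5 times of these values under every other alternative: 399 and 441 with no filter on low signal, 323 and 349 when both arrays had to reach the 60th percentile, 388 and 433 with the mean of all probes, 382 and 416 with low signals raised to the filter level, and the counts given with the scalings. Of 250 named genes 183 were past 2-fold, and 156 of these were so under all 3 scalings. No named gene past 2-fold changed direction. With low signals raised, Csf2 was at 0.86, Cd28 at 0.71 and Ublcp1 at -0.65. List medians near 0 changed sign under a scaling for BMP and TGF-beta genes, costimulatory molecules, ESCRT-III, interferon stimulated genes, MHC class II, NF-kB, necroptosis and sterol synthesis. No paired analysis was possible because each condition has 1 array. Dim genes limit the largest folds. These are bounds where the LPS signal of a higher gene, or the LPS/zVAD signal of a lower gene, lay under the filter level.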

Other observations

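Probes without exactly 1 gene symbol also differed: of 5843 such probes past the filter 94 were at least 2-fold higher with LPS/zVAD than with LPS and 199 at least 2-fold lower. They were not named here.

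The chosen lists held 72 of the 396 higher and 64 of the 438 lower genes. Among those outside them, Tnfrsf26, a TNF receptor family member, stood at 8.45 in Control and 7.57 with LPS, at 10.51 with LPS/zVAD and at 7.75 once Nec-1 was added, and Fam171b at 6.76, 6.70, 9.83 and 7.06. Lox, the enzyme that crosslinks collagen, stood at 5.49, 8.27, 6.07 and 6.62. Ms4a4a, a membrane protein of macrophages, stood at 8.81, 12.16, 10.02 and 10.96, Sema4a, a semaphorin, at 8.62, 10.64, 8.46 and 9.95, and Pou2f2, the transcription factor OCT2, at 7.73, 9.33, 7.25 and 8.60.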
